A study of Drosophila melanogaster with 9 samples.

Results

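The chemoreceptor genes of Drosophila melanogaster were examined for open chromatin in Kc167 cells, a female line derived from embryos that has features of hemocytes, the blood cells of the fly. A gene was a member when its symbol in the dm6 annotation was Or, Gr or Ir followed directly by digits and a letter. This rule found 186 genes of 18277, namely 60 odorant receptors (Or), 60 gustatory receptors (Gr) and 66 ionotropic receptors (Ir), and 7 of them were pseudogenes. Open DNA was mapped by ATAC-seq, which uses the cuts of the transposase Tn5 to find accessible sites, in 3 groups of 3 libraries. For M1BP knockdown the cells were given 20 micrograms of long double-stranded RNA matching M1BP, and for Cp190 knockdown 12 micrograms matching Cp190, and they were harvested after 5 days. The third group is labelled mock. Transcription was not measured here, so whether each receptor was silent in these cells was not tested.

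Chemoreceptors are the membrane proteins by which the fly smells and tastes. Odorant receptors are ligand-gated channels formed with the common partner Orco, gustatory receptors detect sugars, bitter compounds and carbon dioxide, and ionotropic receptors are relatives of glutamate receptors that work with the co-receptors Ir25a, Ir8a, Ir76b or Ir93a. Each receptor is normally made in a few sensory neurons and kept off elsewhere, and many of the genes are small and lie close to other genes. M1BP has zinc fingers and recognises Motif 1, an element of many gene promoters. Cp190 takes part in several insulator complexes, among them the complex that the zinc finger protein Su(Hw) brings to DNA. The comparisons address which of these loci hold open sites and whether the sites depend on either protein.

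The sequences below carry the results that follow and were read from the RefSeq dm6 genome on the plus strand, 200 bases centred on the summit of each region. The first is from the strongest region that touches a receptor start (Gr94a). Its summit lies in an intron of p53, so the bases printed need not hold the Gr94a start. The others are a site lost after M1BP knockdown between genes (Gr93a) and another in a receptor exon (Ir93a), a site gained after M1BP knockdown (Gr9a), a site lost after Cp190 knockdown (Or92a) and a site upstream of Ir92a that holds the Su(Hw) core. Their positions, in that order, were chr3R:23051336-23051535, chr3R:21835783-21835982, chr3R:20852019-20852218, chrX:10063778-10063977, chr3R:20503733-20503932 and chr3R:20337223-20337422. Capitals mark the AP-1 element TGANTCA in Gr94a and Or92a and the Su(Hw) core GCATACTT in Ir92a and, on the minus strand, in Gr9a.
Gr94a start: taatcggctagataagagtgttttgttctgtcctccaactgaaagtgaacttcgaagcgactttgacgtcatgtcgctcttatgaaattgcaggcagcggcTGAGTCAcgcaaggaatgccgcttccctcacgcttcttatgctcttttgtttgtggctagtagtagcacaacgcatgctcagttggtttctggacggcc
Gr93a flank: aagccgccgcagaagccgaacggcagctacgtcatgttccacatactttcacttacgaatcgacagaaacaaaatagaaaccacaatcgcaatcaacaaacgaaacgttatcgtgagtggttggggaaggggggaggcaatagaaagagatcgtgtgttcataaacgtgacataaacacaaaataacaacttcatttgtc
Ir93a exon: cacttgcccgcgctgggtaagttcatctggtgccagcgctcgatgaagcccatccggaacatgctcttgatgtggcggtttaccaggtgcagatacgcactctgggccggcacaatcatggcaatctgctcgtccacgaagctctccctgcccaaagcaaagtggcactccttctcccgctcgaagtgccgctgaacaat
Gr9a flank: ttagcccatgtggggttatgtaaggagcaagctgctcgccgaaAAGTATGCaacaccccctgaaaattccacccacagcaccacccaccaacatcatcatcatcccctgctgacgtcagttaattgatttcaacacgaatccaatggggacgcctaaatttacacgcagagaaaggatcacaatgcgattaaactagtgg
Or92a flank: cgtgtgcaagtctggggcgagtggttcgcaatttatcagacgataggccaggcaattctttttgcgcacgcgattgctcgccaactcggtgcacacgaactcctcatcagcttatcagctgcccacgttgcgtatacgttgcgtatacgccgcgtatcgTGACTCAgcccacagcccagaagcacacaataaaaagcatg
Ir92a upstream: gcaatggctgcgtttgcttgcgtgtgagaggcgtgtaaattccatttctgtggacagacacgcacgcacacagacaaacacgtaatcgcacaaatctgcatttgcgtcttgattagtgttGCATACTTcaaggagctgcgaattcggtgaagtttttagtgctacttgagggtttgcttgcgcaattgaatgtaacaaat

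The peak lists held 13464 to 15232 peaks after M1BP knockdown, 18005 to 18625 after Cp190 knockdown and 17178 to 18959 in mock. The median fold enrichment of a peak summit over its local background was 3.12 to 3.85 after M1BP knockdown, 2.48 to 2.74 after Cp190 knockdown and 2.62 to 2.65 in mock. Read depth was not part of the lists. The shorter lists and higher folds after M1BP knockdown stand beside every result of that knockdown, and their part in those results was tested only by the lists of equal length below. All 8 hemocyte markers (among them srp, Hml and Pxn) had a peak within 2 kb in each of the 9 libraries, with 6 to 7 of them holding a peak inside the gene. Of 5 neuron markers, 4 had a peak within 2 kb and 2 (elav and brp) inside the gene in each library, while Orco had none in any library. Peaks covered 609 ± 185 bases of the M1BP gene after M1BP knockdown (SD, n = 3), 1336 ± 3.46 bases after Cp190 knockdown and 1337 ± 9.24 bases in mock, and 654 ± 20.5, 772 ± 89.0 and 761 ± 82.9 bases of the Cp190 gene, a check of accessibility that does not measure the RNA or protein of either target.

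In each library most receptor genes had no peak within 2 kb, and most regions near them that all 9 libraries held lay at the starts of other genes. Over the gene plus 2 kb on each side, here called its window, 60.7 ± 5.51 of the 186 genes had a peak after M1BP knockdown (SD, n = 3), 60.7 ± 3.79 after Cp190 knockdown and 68.0 ± 2.00 in mock. These were 32.6%, 32.6% and 36.6% of receptor genes, against 67.6%, 69.8% and 71.8% of all annotated genes. Inside the gene the shares of receptors were 8.24%, 10.0% and 11.3%, against 45.6%, 50.1% and 50.7% of all genes. At a transcript start, taken as 100 bp to each side, they were 2.87%, 2.69% and 3.05%, against 38.8%, 41.1% and 41.1% of all genes. Of the receptors, 89 had no peak in the window in any library and 173 had none at a start. The order of the groups was not the same in lists of equal length. With the 13464 strongest peaks of each list the counts were 53.0 after M1BP knockdown, 47.0 after Cp190 knockdown and 47.7 in mock.

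**Figure D1:**
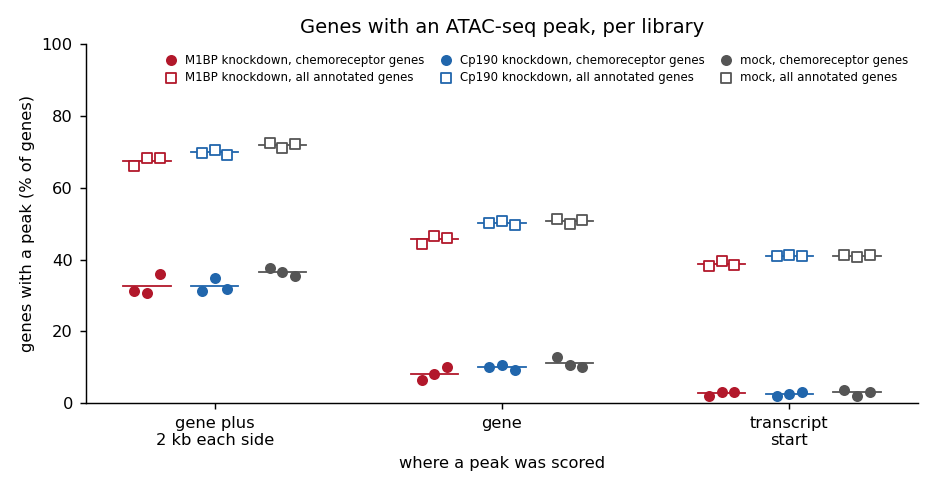
Percentage of genes with a peak in each library, scored over the gene plus 2 kb each side, the gene, or 100 bp around a transcript start (x axis). Filled circles are the 186 chemoreceptor genes, open squares are all 18277 annotated genes, and lines are means of 3 libraries. Receptor shares lie below 40% for windows and below 5% for starts in every library, and all genes lie above them in each place.

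The window counts split by family. Odorant receptor windows with a peak numbered 17 to 19 of 60 after M1BP knockdown, 14 to 16 after Cp190 knockdown and 20 to 25 in mock. Neither knockdown overlapped mock in this family, and the same held over all annotated genes, with 12076 to 12489 windows after M1BP knockdown, 12651 to 12892 after Cp190 knockdown and 12987 to 13218 in mock. Gustatory receptor windows numbered 20 to 26 of 60, 23 to 25 and 21 to 24, and ionotropic receptor windows 16 to 22 of 66, 19 to 26 and 22 to 24, so the groups overlapped in both families.

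Merging the peaks of the 9 libraries gave 25579 open regions in the genome, and 156 of them touched a receptor window. Of the 156 regions, 38 lay at the start of another gene only, 6 at a start shared with a receptor, and 8 at a receptor start alone. A further 41 lay inside a receptor gene away from starts, 45 in the flank inside another gene and 18 between genes. The 52 regions at any start were the steady ones, with 31 (59.6%) present in all 9 libraries, against 10 of the 104 regions away from starts (9.62%). Genome-wide the same shares were 72.2% and 19.4%. The median mock percentile, which ranks a peak by its −log10 q among the peaks of its own list, was 66.9 for receptor-window regions at starts that every mock library held and 32.9 for those away from starts, against 74.8 and 42.5 over the genome. Of the 54 windows with a peak in every mock library, 19 had the regions that every mock library held only at the start of another gene, and 20 had such a region in the receptor gene or at its start.

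Receptor starts proper were open at a handful of loci. Only Gr94a, Gr21a and Or49b had a peak at an annotated start in all 9 libraries. Gr94a, a gustatory receptor, shared its region of 2676 bp at chr3R:23050174-23052849 with the start of p53, the tumour suppressor gene, and the summit lay in a p53 intron. That region ranked at percentiles 99.6, 99.7 and 99.5 after M1BP knockdown, 93.9, 96.3 and 96.9 after Cp190 knockdown and 96.0, 95.6 and 95.4 in mock. It was among the strongest sites of every library, with every M1BP knockdown library above the rest.

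Gr21a, which forms the carbon dioxide receptor with Gr63a, had a region of 1667 bp at chr2L:781104-782770 that no other gene's start shared. Its summit lay in a Gr21a exon, 1304 bp from the nearest annotated start of the gene. It was a modest site, at percentiles 20.4, 27.2 and 34.4 after M1BP knockdown, 37.3, 37.1 and 32.3 after Cp190 knockdown and 33.4, 29.6 and 44.2 in mock. The groups overlapped.

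Or49b, an odorant receptor, shared its start region with Cyp9h1, a cytochrome P450 gene, on chromosome 2R. Fold enrichment there was 4.85, 4.13 and 3.89 after M1BP knockdown, 2.24, 2.60 and 2.90 after Cp190 knockdown and 2.26, 2.01 and 2.37 in mock. Every M1BP knockdown library stood above every other library, and the test of that difference is given with the summit heights. The merged region touching the Ir60b start, shared with Letm1, was also present in all 9 libraries. Those of Or42b and of Gr61a, shared with JMJD5, were present in 8. Peaks at the starts themselves were fewer. Gr61a had a start peak in 2 libraries of each group. Or49b was the only odorant receptor with a start peak in M1BP knockdown libraries 1 and 3. In M1BP knockdown libraries 2 and 3 and Cp190 knockdown libraries 1 and 3, 0 ionotropic receptors had a start peak. Gr63a shared a merged start region with Lamtor4 and Ir76a with CG14102, both described below. Merged regions at a further Gr21a start and at those of Or43a, Gr89a, Gr97a, Ir7g and Ir20a had a peak in 1 to 3 libraries.

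Peaks of receptor windows were absent after M1BP knockdown about as often as those of the genome. A region was called lost when every mock library and no knockdown library had a peak in it, and gained in the opposite case. Of the 77 receptor-window regions with a peak in every mock library, 14 were lost after M1BP knockdown (18.2%), where 15% of all such regions were. At transcript starts 3 of 42 were lost (7.14%), beside 5.63% of all regions, and away from starts 11 of 35 (31.4%), beside 23.1%. Of the 50 regions with a peak in every M1BP knockdown library, 4 were gained (8%), beside 7.17%. The lost regions were weak sites, with a median mock percentile of 21.7, against 26 for all 2110 regions lost in the genome and 67.0 for the 45 receptor-window regions that all 6 libraries held.

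These counts moved with the peaks kept. With the 13464 strongest peaks of each list, 3 of 52 receptor-window regions were lost after M1BP knockdown (5.77%), beside 8.17% of all regions, and they belonged to the windows of Gr93a, Gr63a and Gr8a. With peaks of −log10 q of at least 20, 2 of 36 were lost (5.56%), beside 9.76%, in the windows of Gr93a and Or67b. Only the Gr93a site was called lost under the full lists and each of these choices.

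**Figure D2:**
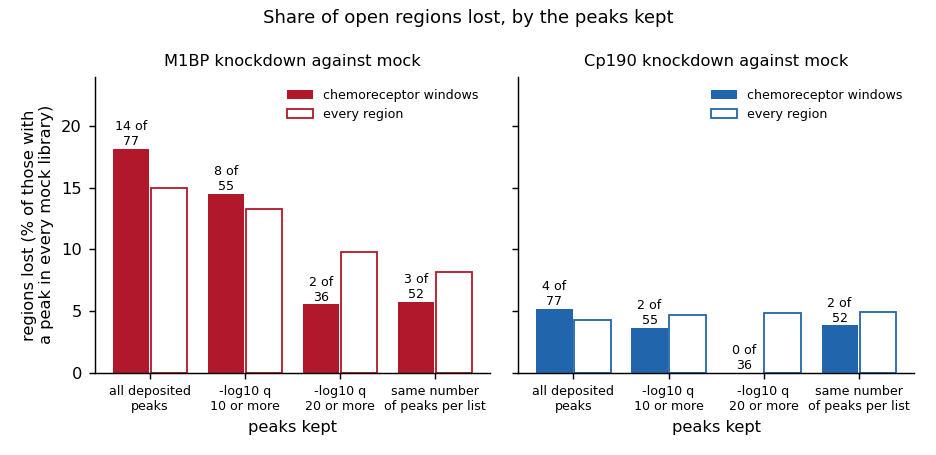
Percentage of regions lost (y axis) among those with a peak in every mock library, for 4 choices of the peaks kept (x axis), after M1BP knockdown (left) and after Cp190 knockdown (right). Filled bars are regions of chemoreceptor windows with their counts, and open bars are all regions. In the M1BP knockdown the receptor share is 18.2% with all deposited peaks and 5.77% with lists of equal length, beside 15% and 8.17% for all regions.

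The Gr93a site was the strongest of the 14 lost sites in mock. Gr93a is required for the taste of caffeine. The site lay between genes at chr3R:21835697-21835961, and its summit was 3379 bp downstream of the Gr93a start and 9571 bp from the nearest other start. No M1BP knockdown library had a peak there, while fold enrichment was 3.64, 4.00 and 4.13 after Cp190 knockdown and 3.95, 3.57 and 3.72 in mock. Its percentiles were 68.8, 68.1 and 66.3 after Cp190 knockdown and 69.3, 62.8 and 66.0 in mock. It was the sole peak of the Gr93a window, which then held 0 open bases in each M1BP knockdown library, 246 ± 18.5 bases after Cp190 knockdown (SD, n = 3) and 221 ± 29.3 in mock.

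The ionotropic co-receptors held 4 of the 14 lost sites. Of their 8 regions with a peak in every mock library, Ir25a lost 1, Ir8a 2 and Ir93a 1 after M1BP knockdown, beside 15% of all regions and 23.1% of those away from starts, and Ir76b had no peak in any library. With lists of equal length no region of Ir25a, Ir8a or Ir93a was called lost. The Ir93a site lay in an exon of that gene, which serves the sensing of temperature and humidity with Ir25a, at chr3R:20851890-20852435. Its percentiles were 40.6, 31.2 and 36.2 after Cp190 knockdown and 26.5, 34.4 and 29.1 in mock, with no peak in any M1BP knockdown library. The Ir8a sites lay in an exon of Ir8a, the co-receptor of acid-sensing receptors, and in an exon of the neighbouring mxc, and the Ir25a site in an exon of the neighbouring Fnta, which encodes a farnesyltransferase subunit. In mock these 3 ranked between percentiles 0.433 and 39.6, so they were near the calling threshold in some libraries.

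Gr63a and Ir76a each lost 2 sites. At Gr63a, the partner of Gr21a, a merged region of 1231 bp at chr3L:3896593-3897823 touched the start of Lamtor4, which encodes a lysosomal scaffold protein. It reached the Gr63a start in 1 Cp190 knockdown library only, and 0 mock libraries had a peak at that start. No M1BP knockdown library had the region. Its percentiles were 20.2, 15.2 and 38.6 after Cp190 knockdown and 40.8, 29.5 and 37.9 in mock. Its summit lay in a Lamtor4 exon, 685 bp upstream of the Gr63a start, and the other lost site lay in an exon of Ccz1. At Ir76a, a receptor for phenylethylamine, 1 site lay in an exon of SREBP, the sterol-sensing transcription factor. The other was a merged region that touched the starts of CG14102 and Ir76a, and the Ir76a start itself did not have a peak in all 3 libraries of any group. The CG14102 site was lost after Cp190 knockdown as well, at mock percentiles of 0.744, 17.3 and 22.2.

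The other lost sites were in the windows of Gr39a, Ir40a, Or83a, Ir85a and Or49b. The Gr39a site lay in an intron of this bitter and courtship receptor, and the Ir40a site in an intron of this dry-air receptor, over an annotated transposon insertion. Those of Or83a, Ir85a and Or49b lay in exons of CG1172, Ir85a itself and CG17575. Of the 14 lost sites, 11 had their summit in an exon of some gene and 9 were present in every Cp190 knockdown library. Counted by gene, 2 of 54 windows were lost, Or83a and Gr93a (3.70%), beside 3.57% of all genes.

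The 4 gained sites had a median percentile of 15.3 after M1BP knockdown, against 39.7 for all gained regions of the genome. The Gr9a site lay in an intron of CG15312 at chrX:10063615-10064078, 2250 bp downstream of the Gr9a start. It had percentiles of 49.7, 40.4 and 42.9 after M1BP knockdown and no peak in any Cp190 knockdown or mock library. The others were an exon of Gr58c, next to Gr58b, an exon of Decay, a caspase gene upstream of the bitter receptor gene Gr89a, and an intron of Ir41a, a receptor for polyamines. Their mean percentiles after M1BP knockdown were 13.8, 16.7 and 12.8. Counted by gene, 4 of 48 windows were gained (8.33%), beside 1.19% of all genes. They were Gr9a, Gr58b, Gr58c and Gr89a, of which Gr58b and Gr58c shared 1 site. A window counts as gained only when no mock library has a peak anywhere in it. In mock 36.6% of receptor windows had a peak, against 71.8% of all genes, and counted by region the gained shares were 8% and 7.17%. The part of sparser windows in the share by gene was not tested.

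**Figure D3:**
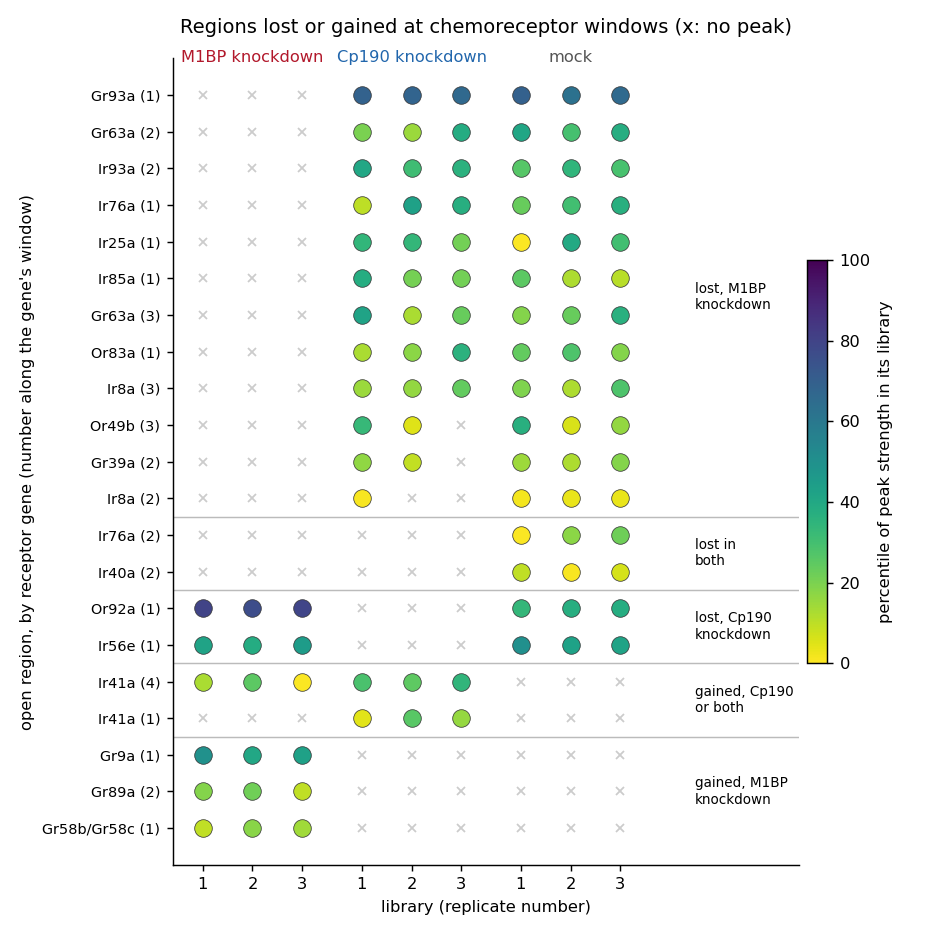
Every receptor-window region lost or gained in either knockdown (rows, by receptor gene and number along its window) in the 9 libraries (columns). Colour is the percentile of peak strength in its own library and crosses are libraries with no peak. Gr93a is the strongest lost site of the M1BP knockdown at mock percentiles of 62.8 to 69.3, and Or92a stands at 76.7 to 80.0 after M1BP knockdown with no peak after Cp190 knockdown.

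Cp190 knockdown left most receptor-window sites in place. Of the 77 regions with a peak in every mock library, 4 were lost (5.19%), beside 4.24% of all regions. At starts these were 2 of 42 (4.76%), beside 1.22%, and away from starts 2 of 35 (5.71%), beside 6.89%. The 4 lost regions had a median mock percentile of 24.9, against 45.1 for all 598 regions lost in the genome. The 67 receptor-window regions that all 6 libraries held had a median of 56.1. Of the 77 regions with a peak in every Cp190 knockdown library, 2 were gained (2.60%), beside 1.97%. Counted by gene, 3 of 54 windows were lost (5.56%), beside 1.91% of all genes, and 0 of 53 were gained, beside 0.246%. A window counts as lost only when no knockdown library has a peak anywhere in it, and receptor windows held peaks less often than those of all genes. The part of this in the share by gene was not tested. The lost windows were Or92a, Ir56e and Or35a, and in Or35a the mock peaks lay at different places in different libraries, so no single region was lost. With lists of equal length 2 of 52 regions were lost (3.85%), those of Or92a and Ir56e, beside 4.95% of all regions.

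Or92a is a receptor for vinegar odours. Its lost site lay at chr3R:20503640-20503957, 956 bp upstream of Or92a and 86 bp from the start of MtnB, a metallothionein gene whose product binds heavy metals. Fold enrichment was 8.04, 6.57 and 6.22 after M1BP knockdown, against 2.44, 2.58 and 2.55 in mock, and no Cp190 knockdown library had a peak there. The M1BP knockdown libraries were all above mock, and limma on median-centred log2 fold enrichment gave a change of 1.18 ± 0.08 (SE) with an adjusted p of 4.53e-09. Open bases of the whole window were 598, 291 and 484 after M1BP knockdown, 0 in each Cp190 knockdown library and 261, 474 and 181 in mock. These overlapped between M1BP knockdown and mock, with a two-sided exact permutation p of 0.2, where 3 libraries against 3 allow no p under 0.1.

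Ir56e had its only open site between genes at chr2R:19651477-19651901, 630 bp upstream of its start. It ranked at percentiles 41.9, 38.5 and 45.0 after M1BP knockdown and 50.2, 42.5 and 41.9 in mock, and no Cp190 knockdown library had it. The Ir40a and Ir76a sites lost in both knockdowns were weak, with mock percentiles of at most 22.2. The 2 gained sites lay in introns of Ir41a, a gene of 104437 bp that holds transposon insertions. One of these 2 was gained after M1BP knockdown as well, at percentiles 12.6, 25.2 and 0.597, against 28.7, 24.6 and 34.5 after Cp190 knockdown and no peak in mock.

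Between the knockdowns, 13 of the 77 regions with a peak in every Cp190 knockdown library were absent from every M1BP knockdown library (16.9%), beside 18.7% of all regions. The reverse held for 5 of 50 (10.0%), beside 10.4%, namely the sites of Or92a, Ir56e, Gr9a, Gr89a and Gr58c.

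Heights of shared sites were compared by limma on log2 fold enrichment, centred on the median of each library, over regions with a peak in all 6 libraries of a comparison. In the M1BP knockdown 12 of 45 receptor-window regions were lower than in mock at an adjusted p under 0.05, beside 28.9% of all regions, and 14 were higher, beside 27.4%. The receptors' median log2 change was 0.07, and that of all 9750 regions was −0.01. Without centring, the median of all regions was 0.26 higher after M1BP knockdown and the receptor counts were 2 lower and 27 higher (8.35% and 54.3% of all regions), so the changes are relative to the typical site. Leaving out mock library 2, 7 regions were lower. Starts made up 8 of the 12 lower and 11 of the 14 higher regions, and 32 of the 45 tested.

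The largest fall among them was at Ir41a, in an intronic region over transposon insertions. Fold enrichment was 3.64, 5.55 and 3.26 after M1BP knockdown, 6.4, 7.41 and 7.73 after Cp190 knockdown, and 6.05, 6.02 and 6.01 in mock. The limma change of M1BP knockdown against mock was −0.85 ± 0.14 (SE), with an adjusted p of 0.000348. Only uniquely mapped reads were kept by the authors, so the height over such repeats rests on the parts of them that can be mapped.

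The Ir54a window fell next, at the start of sub, a kinesin gene. Fold enrichment was 2.49, 3.24 and 1.99 after M1BP knockdown, against 3.96, 3.15 and 3.32 in mock, so 1 library of the knockdown lay within the mock range. The limma change was −0.72 ± 0.12 (SE), with an adjusted p of 8.62e-05. This was the only receptor-window region with Motif 1 within 150 bp of its summit, beside 1.38% of all regions.

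The other lower regions were at the starts of ix (Gr47b), Fnta (Ir25a), CG18011 (Or46a), Acat1 (Ir7g), Art7 (Gr59a), snRNA:U11 and Fie (Gr63a) and RpS30 (Ir93a), in the flanks of Ir25a and Gr21a, and upstream of Ir92a. Without centring, only the Ir41a and Ir54a regions of the 12 were still lower by limma, with adjusted p of 3.46e-05 and 0.000578. The changes of Gr63a, Ir93a, Ir7g, Gr59a and Ir92a were then above 0, between 0.00601 and 0.0861, with adjusted p of 0.487 or more. At Ir93a, RpS30, a ribosomal protein gene, ranked at percentiles 92.2, 90.2 and 91.6 after M1BP knockdown and 97.3, 97.3 and 98.4 in mock. After centring, the falls ranged from 0.18 to 0.85 on the log2 scale.

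Higher regions after Or92a included the start region that Or49b shares with Cyp9h1, at 0.68 ± 0.09 (SE, adjusted p 5.34e-06 by limma). The start of Tre1 next to Gr5a, the trehalose receptor, was at 0.56 ± 0.07 (adjusted p 6.46e-06). The region that touches the starts of Gr94a and p53 followed at 0.51 ± 0.07 (adjusted p 1.19e-05). Its summit lay in a p53 intron, so this height is not that of the Gr94a start itself. Fold enrichment at Gr5a was 6.22, 6.31 and 6.18 after M1BP knockdown, against 3.6, 3.36 and 3.56 in mock, with no overlap. The remaining ones were in the windows of Gr2a, Or85f, Ir100a, Or2a, Ir60e, Or9a, Or71a, Gr97a, Ir85a and Ir8a, at changes of 0.45 or less. At Ir8a the adjusted p was 0.0415 and was no longer under 0.05 with quantile normalization or with −log10 q as the height.

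**Figure D4:**
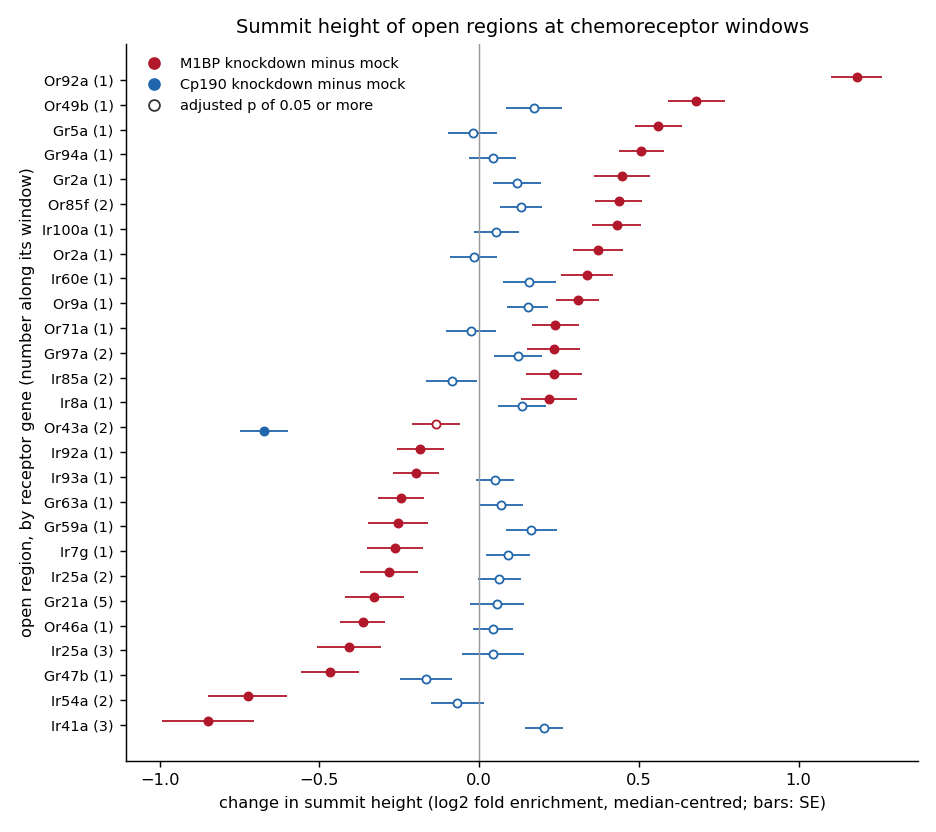
Change in summit height against mock (x axis, log2 fold enrichment after median centring) for each receptor-window region past the limma threshold in either knockdown (rows). Red is M1BP knockdown minus mock, blue is Cp190 knockdown minus mock, bars are SE from 3 libraries a group, and open symbols have an adjusted p of 0.05 or more. Or92a is the farthest right at 1.18, and Or43a is the only filled Cp190 knockdown point at −0.67.

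In the Cp190 knockdown 1 of 67 receptor-window regions was lower by limma, beside 2.89% of all regions, and 0 of 67 were higher, beside 1.52%, while 4 of the 67 had an unadjusted p under 0.05 in either direction. The lower region overlapped the end of Or43a, an odorant receptor for benzaldehyde and related compounds, at chr2R:7232561-7233058. Fold enrichment was 4.99, 4.44 and 4.36 after M1BP knockdown, 2.28, 2.88 and 3.02 after Cp190 knockdown, and 4.05, 4.08 and 4.42 in mock. Every Cp190 knockdown library was below every other library, with a limma change of −0.67 ± 0.08 (SE) and an adjusted p of 9.41e-06. The M1BP knockdown was −0.14 ± 0.08 from mock there, with an adjusted p of 0.13. Between the knockdowns, 12 of 43 regions were lower after M1BP knockdown, beside 26.8% of all regions, and 11 were higher, beside 26.2%.

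A short sequence was searched around the summits. The Su(Hw) core GCATACTT, searched on both strands in the 300 bases around each summit, was present in 8 of 156 receptor-window regions (5.13%), beside 2.94% of all regions. None of the 8 lay at a transcript start. They included the Or43a region, the Ir56e site, the Gr9a site and a site between genes upstream of Ir92a, an amine receptor. Over these 8 regions and 3 libraries a group, 19 of 24 region and library pairs had a peak after M1BP knockdown, 6 of 24 after Cp190 knockdown and 13 of 24 in mock. The pairs are not independent, and the same count was not made over all regions with the core. A region needed a peak in only 1 of the 9 libraries to be among the 8. The counts thus partly reflect which libraries brought a region in, and no difference between groups is drawn from them. Of all 156 receptor-window regions, 50 had a peak in every M1BP knockdown library, 77 in every Cp190 knockdown library and 77 in every mock library. In 5 of the 8 regions no Cp190 knockdown library had a peak, and in 2 of the 8 no mock library had. Of the 3 regions that every mock library held, 1 was lost after Cp190 knockdown, that of Ir56e, beside 36.9% of all such regions with the core.

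At Ir92a the site at chr3R:20336969-20337400 had fold enrichments of 4.40, 4.41 and 3.84 after M1BP knockdown, 2.41, 2.75 and no peak after Cp190 knockdown, and 4.12, 3.91 and 3.86 in mock. The Cp190 values were below mock and were not tested, since 1 library had no peak. For M1BP knockdown against mock, limma gave −0.18 ± 0.07 (SE, adjusted p 0.0424) after centring and 0.0861 (adjusted p 0.487) without it, so the direction of this small change rests on the centring. Near Or92a a further site with the core, 1783 bp downstream of the receptor's start, had percentiles of 55.9 and 55.4 in 2 M1BP knockdown libraries and 51.6 in 1 mock library, and no peak after Cp190 knockdown. The core regions of Or59a and Ir60e also had no peak after Cp190 knockdown, and that of Gr61a had a peak in 1 of its libraries. Over the genome, 36.9% of the 444 regions with the core and a peak in every mock library were lost after Cp190 knockdown, against 3.18% of the 13634 without it. In the M1BP knockdown these shares were 6.53% and 15.2%. A match says only that these letters are present.

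**Figure D5:**
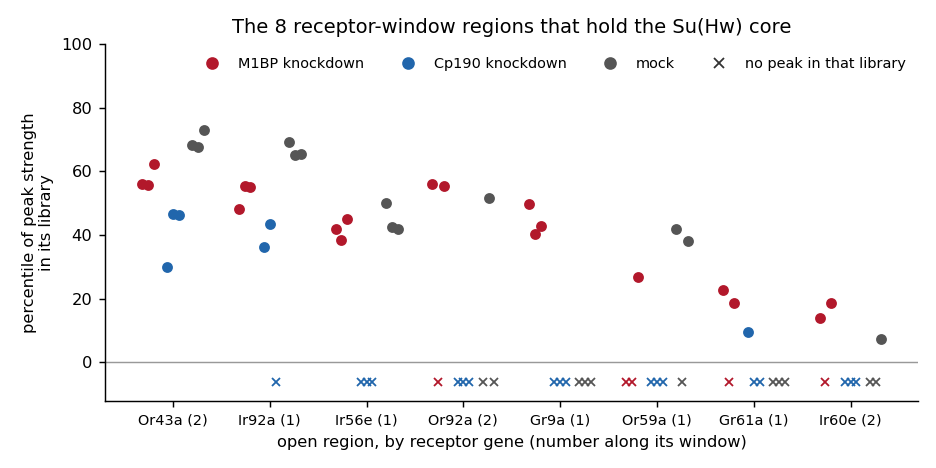
Percentile of peak strength (y axis) in each library for the 8 receptor-window regions that hold the Su(Hw) core within 150 bp of the summit (x axis). Dots are libraries with a peak, coloured by group, and crosses under the line are libraries with none. The M1BP knockdown has 19 dots of 24, the Cp190 knockdown 6 and mock 13, and these dots are not independent of each other.

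Other elements were searched in the same way. The promoter element DRE, TATCGATA, was in 6 regions (3.85%, beside 2.79% of all regions), GAGAGAG in 6 (3.85%, beside 8.25%) and the AP-1 element in 6 (3.85%, beside 7.40%). Of the 14 regions lost after M1BP knockdown, 2 held DRE and 0 held Motif 1, GAGAGAG, the AP-1 element or the Su(Hw) core. Few regions could be lost with them. Of those in every mock library, 1 held Motif 1, 5 DRE, 3 GAGAGAG, 4 the AP-1 element and 3 the core. For DRE, 2 of 5 were lost (40%), beside 3.49% of all regions with DRE. Over the genome, 9.88% of regions with Motif 1 were lost, 6.18% with GAGAGAG, 7.42% with the AP-1 element and 6.53% with the core. Of regions without the element, 15.1% were lost for Motif 1, 16.0% for GAGAGAG, 15.6% for AP-1, 15.2% for the core and 15.5% for DRE. Genome-wide, regions with each element were thus lost less often after M1BP knockdown than regions without it. Each element was counted on its own, so a region can count under several.

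Receptors were also counted by role, with no test between these small groups. Of 9 sugar receptors, 2 to 7 windows had a peak after M1BP knockdown, 7 to 8 after Cp190 knockdown and 7 to 8 in mock, and 0 of their 7 regions with a peak in every mock library were lost in either knockdown, beside 15% of all regions for M1BP and 4.24% for Cp190. These receptors lie largely in the Gr64 cluster, whose windows share sites. Both carbon dioxide receptors had a peak in every library. Of 4 receptors for temperature and humidity 1 to 2 windows were open in each group. Of 5 broad bitter receptors 2 to 3 windows were open in each knockdown and 2 in mock, and of 6 pheromone receptors, among them Or67d and Or47b, 1 to 2 were open in each group. Regions with a peak in every mock library were also lost in these roles. After M1BP knockdown 2 of 5 were lost for carbon dioxide receptors and 1 of 3 for temperature and humidity. For bitter receptors 1 of 4 was lost and for pheromone receptors 0 of 1, beside 15% of all regions. After Cp190 knockdown 1 of 3 was lost for temperature and humidity and 0 for the others, beside 4.24%. Or22a, a receptor for fruit esters, had no peak in any library.

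Other genes of the chemosensory pathway were counted in the same way. Of 51 odorant binding proteins, small secreted carriers of odorants, 16 to 22 windows had a peak after M1BP knockdown, 20 to 27 after Cp190 knockdown and 24 to 26 in mock. Of their 23 regions in every mock library, 5 were lost after M1BP knockdown and 0 after Cp190 knockdown, where 15% and 4.24% of all regions were. Of 29 pickpocket channel genes, which include taste and pheromone channels, 13 to 16, 16 to 19 and 18 to 20 windows were open, with 4 of 24 such regions lost after M1BP knockdown, beside 15%, and 2 after Cp190 knockdown, beside 4.24%. Of 20 CheA and CheB genes, 6, 7 and 6 to 8 windows were open, and 3 of 12 such regions were lost after M1BP knockdown, beside 15%, and 0 after Cp190 knockdown, beside 4.24%. Of 12 regulators of receptor choice, among them acj6 and pdm3, 9 to 10, 9 to 10 and 10 windows were open, with 5 of 37 such regions lost after M1BP knockdown, beside 15%, and 4 after Cp190 knockdown, beside 4.24%.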

How the data were processed

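ATAC-seq was compared between 3 M1BP knockdown, 3 Cp190 knockdown and 3 mock libraries of Kc167 cells, grouped by the treatment label of each sample. The labels name separate samples only, so p-values measure the spread between these libraries, which may be technical. Per the submitters' processing notes, the authors used cutadapt 1.8.1, Bowtie2 2.3.5, SAMtools 1.9 and Picard, and called peaks with MACS2 2.2.5 on dm6, separately for each library. Mitochondrial, duplicate and multiply mapped reads had been removed, and peaks rest on whole paired-end fragments rather than on shifted Tn5 cuts. The deposited columns are the peak interval and summit offset in bases, a ratio (fold enrichment of the summit over local background), −log10 p and −log10 q, and a score that the authors' caller derived from −log10 q. The lowest deposited −log10 q was 4.00, so weaker sites are not in the lists. The lists hold no reads or counts, so depth is unknown and no count test was run, and values rest on 3 libraries a group.

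Members and gene lists were chosen with earlier results of these data known. Genes came from Ensembl release 115 (dm6 coordinates, 5889 transposon insertions left out), 38 genes met the naming rule (an open start in a whole group, a lost or gained region, a limma call, or a fixed receptor), and Mip120 of the regulator list was not matched. A peak was assigned with an overlap of 1 bp. Lost and gained calls, percentiles and open bases were computed in python 3.11.15 with numpy 2.4.6 and scipy 1.17.1, and figures with matplotlib 3.10.9. Log2 fold enrichment was fitted in limma 3.58.1 (R 4.3.3, trend and robust) with Benjamini-Hochberg adjustment over all regions with a peak in all 6 libraries, at a threshold of 0.05. Regions lacking a peak in 1 library are not in that fit. Scripts were tested on simulated data. Alternatives were minimum −log10 q of 10 and 20, equal lists of 13464 peaks, flanks of 0 and 500 bp, summits in place of overlap, pairwise merging, other normalizations, −log10 q as the height, 1 fit of 9 libraries, a replicate block, and each library left out. Both knockdowns share the mock libraries. The authors' differential test works on reads and was not used here. Or59a, Or67b, Gr8a, Gr61a, Ir60b, Or42b, Or35a and Ir20a lie outside the naming rule and were named after their values were seen.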

Additional observations from a re-analysis of the deposited data

How the results depend on the processing

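Of 96 values of comparisons under alternatives other than leaving out a library, 63 kept their direction and size, 30 moved and 3 reversed, and of 227 values of single regions 153 kept their call, 69 lost it and 5 reversed. Where no value shows a cause, the cause was not tested. The difference in windows with a peak per library was 0.333 after Cp190 knockdown against mock with −log10 q of at least 10. With at least 20 it was 2.33, and −0.333 after M1BP knockdown against mock. With equal lists it was −0.667 for Cp190 knockdown, 5.33 for M1BP knockdown, and 6 between the knockdowns (M1BP minus Cp190). With no flank it was −2.33 for Cp190 knockdown, and with 500 bp −3.

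Regions lost after M1BP knockdown numbered 8 with −log10 q of at least 10, 2 with at least 20, 3 with equal lists, and 7 with no flank or with 500 bp, where fewer regions are tested. Gained regions numbered 2 with at least 10, no flank or 500 bp. Regions lost after Cp190 knockdown numbered 2 with at least 10, equal lists or no flank, and 0 with at least 20, and gained ones 0 with at least 20 or equal lists. Between the knockdowns, lost regions numbered 2 with at least 20, 3 with equal lists, 4 with no flank and 5 with 500 bp, and gained ones 1 with no flank and 2 with 500 bp. Without centring, limma called 2 regions lower and 27 higher after M1BP knockdown against mock, and 2 lower and 20 higher against Cp190 knockdown. Single regions lower after centring were then at 0.0729 (Ir93a), 0.0256 (Gr63a), 0.00601 (Ir7g), 0.0156 (Gr59a) and 0.0861 (Ir92a). With −log10 q of at least 10, limma called 1 region higher after Cp190 knockdown.

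Leaving out 1 library at a time gave 14 to 20 lost and 5 to 8 gained regions between the knockdowns (20 without M1BP library 2 or Cp190 library 3, 8 without M1BP library 2), and 4 to 7 lost after Cp190 knockdown (7 without mock library 2 or 3). Limma then called 7 to 14 regions lower after M1BP knockdown (7 without mock library 2), and after Cp190 knockdown 1 to 2 lower (2 without Cp190 library 3) and 0 to 4 higher (4 without Cp190 library 1). The calls at Ir8a, Ir93a, Ir25a, Ir85a, Gr63a, Gr59a, Ir92a, Ir7g, Or71a and Gr97a were lost without at least 1 library. Replicate numbers were not taken to pair the libraries in the main fits. To look for pairing, the mean of its group was first subtracted from each library's height at each region. The correlations below are therefore of these deviations, not of the libraries themselves. Deviations within a group cancel out, so the correlations are not independent of each other. For same-numbered M1BP knockdown and mock libraries they were 0.0826, 0.113 and −0.00216, and for those of different number −0.130 to 0.0536. For same-numbered Cp190 knockdown and mock libraries the deviations correlated at −0.174, −0.0739 and −0.00626, and for those of different number at −0.111 to 0.142. With a replicate block, limma called 12 lower and 15 higher after M1BP knockdown, 1 and 0 after Cp190 knockdown, and 11 and 10 between the knockdowns.

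The lists hold only sites past the authors' threshold, so a lost call means no called peak, not closed chromatin, and weak sites near that threshold limit most calls.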
